A study of Rattus norvegicus with 24 samples.

Results

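A set of 7 autosomal genes of rat liver, A1bg, Plaat3, Ces2e, Rasl10b, Nox4, Gfra1 and Acnat2, are described here over 4 groups of animals. They were chosen by a measured value, since they stood among the autosomal genes with the largest differences between sham-exposed females and sham-exposed males. They are 7 of the 15319 genes in the count tables, and all 7 were found in the table of each sex. Among 10207 autosomal genes tested, ordered by the size of the sham difference, A1bg stood at rank 3, Nox4 at 14, Acnat2 at 25, Gfra1 at 30, Rasl10b at 68, Plaat3 at 116, with Ces2e 1 place before it. Other genes lay between them. The smallest sham difference among the 7 was a log2 fold change of 2.76 for Plaat3, and the next gene below it, Tmem30b, stood at 2.74.

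The livers came from rats of the outbred Sprague-Dawley stock and were sequenced as bulk RNA with 1 library per animal. Females and males each fell into a sham group and a PCB 52 group, with 6 animals in each of the 4. PCB 52 is a lower-chlorinated polychlorinated biphenyl, one of the congeners found in indoor air, and it reached the exposed rats through a nose-only inhalation system at an air flow of 12 L/min. Exposure ran for 4 hours a day over 28 days, starting when females were 42 and males 39 days old. The labels name no genetic change in any group. The air concentration of PCB 52, and what the sham animals inhaled, are not given in the labels. Sex, count table and starting age changed together and cannot be told apart.

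Library totals ran from 6994832 to 9185511 counts. Xist and the Y-linked gene Ddx3y matched the labelled sex in 24 of 24 libraries. The 8 hepatocyte markers, among them the albumin gene Alb, were present in every group, with summed levels of 117896 to 156878 CPM (counts per 1000000 library counts). Animals 13 to 16, all exposed, stood apart from the rest in earlier results of these data, and the exposure values are given with and without them. In bulk liver, fewer cells of a type and less RNA per cell cannot be told apart.

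Adult rat liver is one of the most sexually dimorphic tissues in gene expression. The main driver is known to be pituitary growth hormone, which is released in pulses in males and almost continuously in females, and which acts on hepatocytes through its receptor and the transcription factor STAT5b. Male-biased repressors such as BCL6 and female-biased ones such as CUX2 act downstream, and steroid-metabolising cytochromes P450 are the classic targets. The genes described here sit outside that P450 group. They encode a plasma protein, enzymes that act on lipids, esters and acyl-CoA, a small GTPase, an oxidase and a growth factor receptor.

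Of the 7 genes, 4, A1bg, Plaat3, Ces2e and Rasl10b, were higher in females, and 3, Nox4, Gfra1 and Acnat2, were higher in males. The difference between the sexes was present in the PCB 52 animals, which the choice of genes did not use. Every exposed female lay on one side of every exposed male for 7 of 7 genes, against 9.84% of all genes tested. A1bg, Nox4 and Gfra1 were close to 0 in one sex and passed the low-count filter only through the other. Plaat3, Ces2e, Rasl10b and Acnat2 held counts in every library of both sexes. Acnat2 was low in females, down to 8 counts, and Rasl10b was low in males, down to 6 counts. No difference between exposed and sham animals passed the test for any of the 7 genes in either sex.

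**Figure D1:**
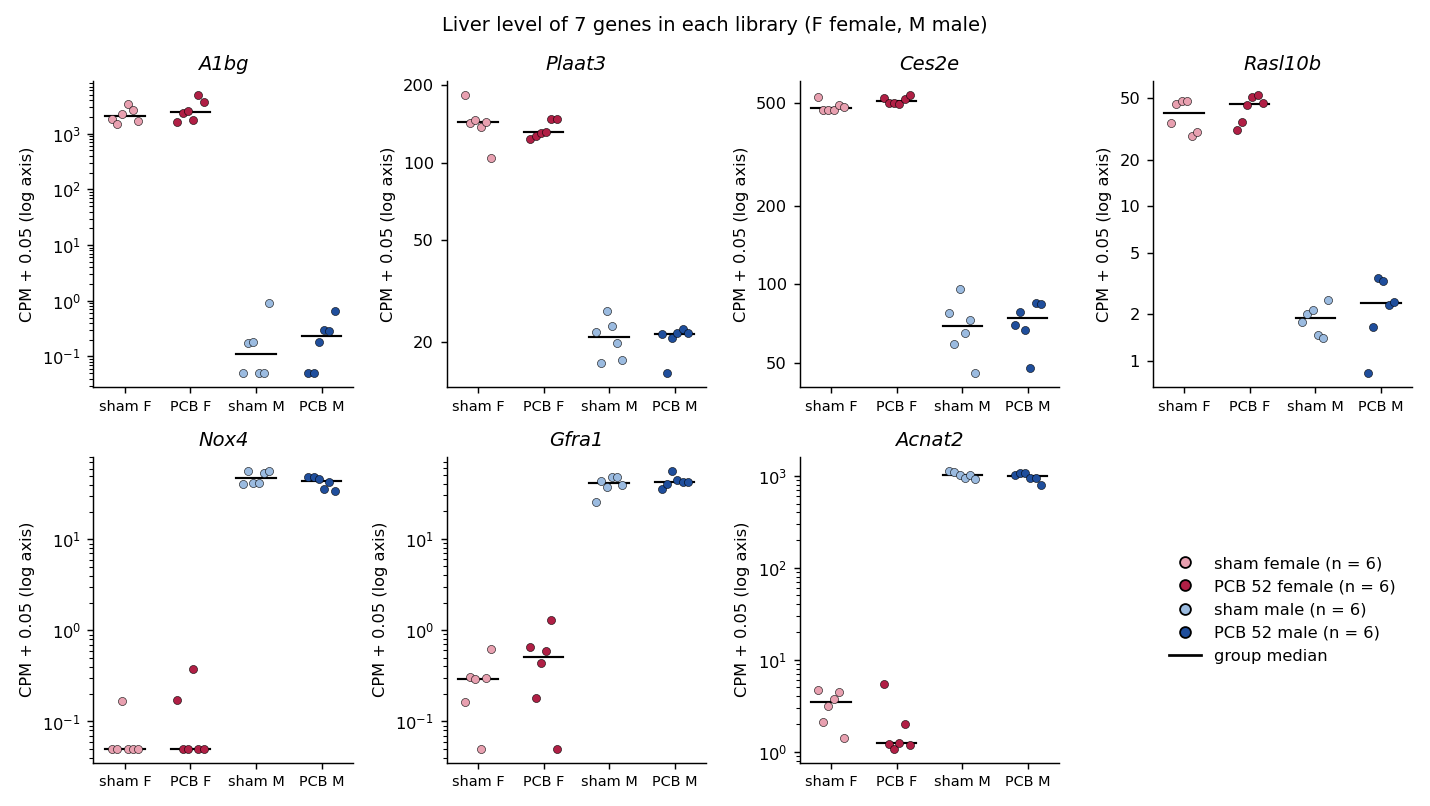
Level of each gene in every library, as CPM + 0.05 on a log axis; points are the 6 libraries of a group and the line is the group median. The female and male libraries do not overlap for any gene, while the exposed and sham libraries of each sex do.

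A1bg encodes alpha-1-B glycoprotein, a secreted plasma protein of the immunoglobulin superfamily that is known in rat as a female-predominant product of liver under growth hormone control. In sham females A1bg ran from 1508 to 3469 CPM with a median of 2055, and in PCB 52 females from 1627 to 4973 CPM with a median of 2440. Male livers were near the limit of detection: the 6 sham male libraries held 8 counts in all, with 3 libraries at 0, and the 6 PCB 52 male libraries held 10 counts, with 2 at 0. The highest male value was 0.858 CPM, in a sham male with 6 counts. All females therefore lay far above all males, and the exposed and sham ranges overlapped within each sex. Relative to library totals, female counts exceeded male counts 13166-fold in the sham animals, with a 95% counting interval of 6682 to 30497, and 13177-fold in the PCB 52 animals, with an interval of 7165 to 27479. These intervals cover counting error only. In PCB 52 animals the sex difference passed the edgeR quasi-likelihood test with an adjusted p of 1.14e-14.

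A1bg was also the most variable of the 4 female-biased genes within a female group. Its coefficient of variation was 32.7% in sham females and 45.5% in PCB 52 females, against 0.752% and 0.696% expected from counting alone. PCB 52 female replicates 5 and 6, at 4973 and 3704 CPM, and sham female replicate 4, at 3469 CPM, were the highest libraries. The others lay between 1508 and 2659 CPM.

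Plaat3 encodes a phospholipase A and acyltransferase that removes or transfers acyl chains of membrane phospholipids. Plaat3 ran from 104 to 184 CPM in sham females, with a median of 144, and from 123 to 148 CPM in PCB 52 females, with a median of 131. In sham males it ran from 16.5 to 26.4 CPM, with a median of 20.9, and in PCB 52 males from 15.1 to 22.5 CPM, with a median of 21.6. The lowest female, at 104 CPM, lay well above the highest male, at 26.4 CPM, and the exposed values lay largely inside the sham range of the same sex. The mean ± SD was 135 ± 10.6 CPM in PCB 52 females and 20.5 ± 2.71 CPM in PCB 52 males (n = 6 each). Plaat3 was 6.40-fold higher in PCB 52 females than in PCB 52 males, a log2 fold change of 2.68 (SE 0.13, adjusted p = 1.30e-15, edgeR).

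Ces2e encodes a carboxylesterase of the CES2 family, enzymes of the endoplasmic reticulum that hydrolyse esters, among them drugs and acylglycerols. Ces2e ran from 468 to 526 CPM in sham females, with a median of 476, and from 496 to 536 CPM in PCB 52 females, with a median of 509. In sham males it ran from 45.5 to 95.8 CPM, with a median of 69.1, and in PCB 52 males from 47.7 to 85.0 CPM, with a median of 73.8. Relative to their level, females formed a narrower band than males, with no overlap between the sexes. The log2 fold change between PCB 52 females and males was 2.80 (SE 0.14, adjusted p = 3.44e-15, edgeR), or 6.94-fold. The coefficient of variation of Ces2e was 4.66% in sham females and 3.11% in PCB 52 females, against 24.8% in sham males and 19.5% in PCB 52 males. Counting alone would give 1.57% and 1.55% in those females and 4.40% and 4.26% in those males. The difference in spread was not tested. Other CES2 genes are close in sequence, and how reads shared among them were assigned is not given in the sources used here.

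Rasl10b encodes a Ras-like small GTPase, one of a group of Ras relatives that switch between GTP-bound and GDP-bound states. Rasl10b ran from 28.4 to 48.3 CPM in sham females, with a median of 40.3, and from 31.2 to 52.6 CPM in PCB 52 females, with a median of 46.2. It was low in males, at 1.35 to 2.43 CPM with a median of 1.84 in the sham group and at 0.779 to 3.38 CPM with a median of 2.30 in the exposed group. The sexes did not overlap, and the exposed males spread to both sides of the sham males. Rasl10b was 18.6-fold higher in PCB 52 females than in PCB 52 males, a log2 fold change of 4.21 (SE 0.22, adjusted p = 1.07e-14, edgeR).

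Nox4 encodes an NADPH oxidase that produces hydrogen peroxide and, unlike some of its relatives, is active without cytosolic activating subunits. Nox4 ran from 40.7 to 56.8 CPM in sham males, with a median of 47.6, and from 33.7 to 48.8 CPM in PCB 52 males, with a median of 44.1. In females it was almost undetected: 1 count was found over the 6 sham libraries, of which 5 were at 0, and 4 counts over the 6 PCB 52 libraries, of which 4 were at 0. The highest female library stood at 0.327 CPM with 3 counts, far below every male. The male to female count ratio was 519 in the PCB 52 animals, with a 95% counting interval of 202 to 1907, and the sex difference passed the edgeR test with an adjusted p of 3.78e-21. In sham animals the ratio rested on the 1 female count, at 2439 with an interval of 437 to 96358. The intervals of both ratios overlapped.

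Gfra1 encodes the receptor subunit that binds glial cell line-derived neurotrophic factor and presents it to the tyrosine kinase RET. Gfra1 ran from 25.3 to 47.9 CPM in sham males, with a median of 40.7, and from 35.5 to 56.0 CPM in PCB 52 males, with a median of 41.8. Females held 12 counts over the 6 sham libraries and 23 counts over the 6 PCB 52 libraries, with at most 0.568 and 1.24 CPM. Every male thus lay above every female, and the exposed and sham ranges overlapped in both sexes. The male to female count ratio in PCB 52 animals was 92.4, with a 95% counting interval of 61.4 to 146, and the sex difference passed the edgeR test with an adjusted p of 1.82e-16. The sham ratio was 168, with an interval of 95.8 to 325.

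Acnat2 encodes a peroxisomal acyltransferase, known from work in mouse on its family, that joins fatty acyl groups from acyl-CoA to amino acids such as taurine; Baat, which conjugates bile acids, is a relative. Acnat2 ran from 920 to 1141 CPM in sham males, with a median of 1025, and from 789 to 1071 CPM in PCB 52 males, with a median of 989. In females it ran from 1.36 to 4.66 CPM with a median of 3.41 in the sham group, and from 1.02 to 5.46 CPM with a median of 1.18 in the PCB 52 group. The sexes were far apart, and 5 of 6 exposed females lay below the sham female mean. The log2 fold change of PCB 52 females against PCB 52 males was -8.97 (SE 0.31, adjusted p = 9.15e-17, edgeR). The male to female count ratio was 320 in sham animals, with a counting interval of 274 to 375, and 494 in PCB 52 animals, with an interval of 405 to 609. Acnat1, a close relative, was not analysed here, and reads shared with it cannot be told apart.

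**Figure D2:**
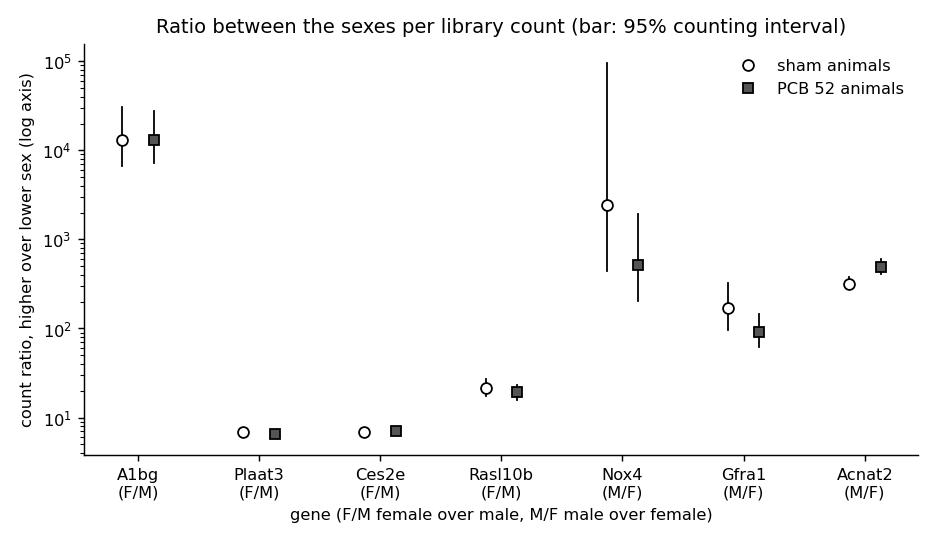
Ratio of counts per library total between the sexes on a log axis, female over male for the first 4 genes and male over female for the others; bars are 95% counting intervals. The ratios of A1bg reach 13166 in sham and 13177 in PCB 52 animals, while those of Plaat3 and Ces2e stay near 7.

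In the sham contrast 20.3% of the genes tested passed an adjusted p of 0.05, and all 7 genes passed because that contrast chose them. In the PCB 52 animals 10.1% of the 10535 genes tested were higher in females and 9.73% were higher in males at the same threshold. The 7 genes passed there as 4 higher in females and 3 higher in males, and the size of each difference lay above that of at least 98.7% of the genes tested. The CPM ranges of the sexes did not overlap in PCB 52 animals for 7 of 7 genes, against 9.84% of all genes tested. For A1bg, Nox4 and Gfra1 these values partly follow from the low-count filter, which they passed only through the sex where they were high. The PCB 52 animals are separate animals of the same sexes, tables and ages as the sham animals, so this test repeats the difference without separating sex from those factors. No sex difference of the 7 genes changed direction or lost its call in any of 10 other settings or 24 fits with 1 library left out.

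The upstream sequences of Ces2e and Acnat2 are shown because the start used for each is the outer start of its annotated gene model. These are a female-biased and a male-biased enzyme gene measured in both sexes. They come from a RefSeq promoter table of the GRCr8 assembly, which held 6 of the 7 genes and differs from the build used for the counts. The Ces2e window is chr19:163649-163898 on the plus strand and the Acnat2 window is chr5:68553020-68553269 on the minus strand. Each shows the 250 bases before the start, 5′ to 3′, with capitals for motif matches on either strand.
Ces2e: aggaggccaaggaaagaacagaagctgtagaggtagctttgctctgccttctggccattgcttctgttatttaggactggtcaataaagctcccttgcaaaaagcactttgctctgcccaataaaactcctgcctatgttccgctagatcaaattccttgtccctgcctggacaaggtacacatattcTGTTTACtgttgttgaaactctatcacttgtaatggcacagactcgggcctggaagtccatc
Acnat2: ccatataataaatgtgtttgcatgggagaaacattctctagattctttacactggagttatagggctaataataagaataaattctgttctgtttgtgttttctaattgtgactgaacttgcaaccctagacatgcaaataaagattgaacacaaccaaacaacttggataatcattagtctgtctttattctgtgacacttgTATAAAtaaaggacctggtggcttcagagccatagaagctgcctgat
The motifs searched were TTCNNNGAA for STAT5, TGTTTAC for FOXA, ATTGAT for HNF6 and TATAAA for the TATA box, and no match overlapped another. Ces2e held 1 TGTTTAC beginning 62 bases before the start, a motif found in 3.21% of the 33469 windows of the same length in the table. Acnat2 held 1 TATAAA beginning 47 bases before the start, found in 12.9% of windows. Of the other 4 genes with an entry, A1bg held 1 TTCNNNGAA beginning 69 bases and 1 ATTGAT beginning 135 bases before its start, found in 7.67% and 7.10% of windows, although its window lies within a longer annotated transcript. Plaat3, Nox4 and Gfra1 held none of the 4 motifs in these windows, which were rich in G and C: 63.2%, 72.8% and 62.0% of bases, against 35.2% for Acnat2 and a median of 51.2% over all windows. The starts used for Plaat3, Nox4 and Gfra1 differ from the outer start of their gene models, so these windows may lie inside an annotated transcript. A match in these letters describes the sequence and says nothing of binding.

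Whether inhaled PCB 52 moved these genes was asked within each sex, against the sham animals that also entered the choice of the genes. At an adjusted p of 0.05, 0% of 10251 genes passed in females and 0% of 10180 in males with edgeR, although 1021 and 585 genes had an unadjusted p under 0.05. DESeq2 called 27 genes in females and 1 in males, and limma-voom 0 in both. None of the 7 genes was among the genes called by any of the 3 tools, where DESeq2 gave no adjusted p for Acnat2 in females, and none had an unadjusted p under 0.05 in edgeR. The CPM ranges of exposed and sham animals did not overlap for 0.332% of genes in females and for 0.236% in males, and for 0 of the 7 genes in either sex. Of the 7 genes, 5 were tested in females and 6 in males, since Nox4 and Gfra1 in females and A1bg in males fell below the filter on low counts.

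**Figure D3:**
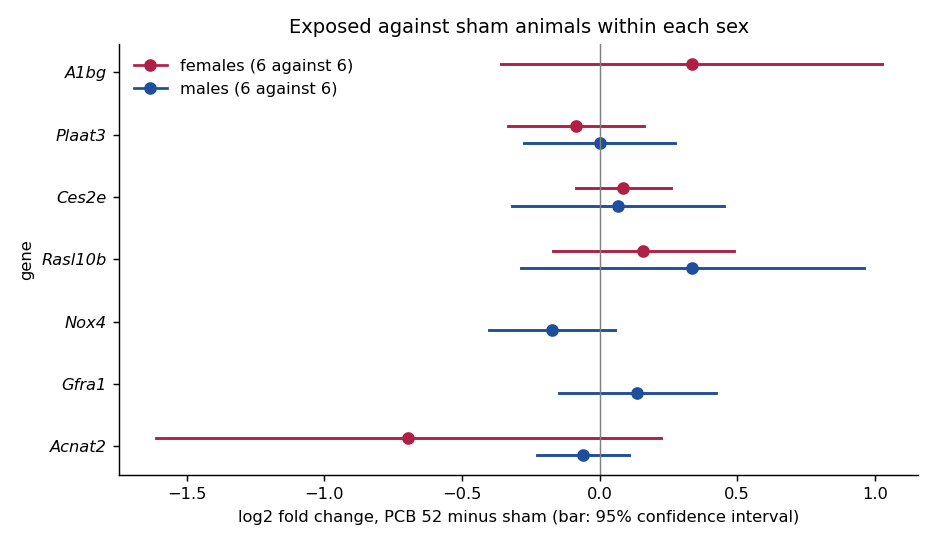
Log2 fold change of PCB 52 against sham animals within each sex for the genes that passed the low-count filter; bars are 95% confidence intervals and 6 animals stand against 6. Every interval includes 0, from the narrow interval of Acnat2 in males to the wide one of Acnat2 in females, -1.61 to 0.22.

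Among the female-biased genes, A1bg had a log2 fold change of 0.33 in exposed females (SE 0.32, 95% interval -0.36 to 1.03, adjusted p = 0.743, edgeR), with 4 of 6 exposed females above the sham mean. This value was 0.10 without PCB 52 female replicate 5 and 0.53 without sham female replicate 4, the 2 libraries with the highest A1bg of their groups. It was also 0.53 without animals 13 to 16. Plaat3 stood at -0.09 in females (SE 0.12, interval -0.33 to 0.16, adjusted p = 0.831) and at -0.00024 in males (SE 0.13, interval -0.27 to 0.27, adjusted p = 1). Ces2e stood at 0.09 in females (SE 0.08, interval -0.09 to 0.26, adjusted p = 0.741), where 6 of 6 exposed animals lay above the sham mean of 484 CPM, and at 0.07 in males (SE 0.18, adjusted p = 0.954). Sham female replicate 1, at 526 CPM, nevertheless lay above 5 of the exposed females. Rasl10b stood at 0.16 in females (SE 0.16, adjusted p = 0.749) and at 0.34 in males (SE 0.30, interval -0.29 to 0.96, adjusted p = 0.872), the latter 0.65 without animals 13 to 16. With 1 library left out, the Rasl10b value ran from 0.08 (without sham female replicate 5) to 0.25 (without sham female replicate 4) in females. In males it ran from 0.19 (without PCB 52 male replicate 3) to 0.51 (without PCB 52 male replicate 1).

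Among the male-biased genes, Nox4 had a log2 fold change of -0.17 in exposed males (SE 0.11, 95% interval -0.40 to 0.06, adjusted p = 0.829, edgeR), with 1 of 6 exposed males above the sham mean of 48.3 CPM. Gfra1 stood at 0.14 in males (SE 0.14, interval -0.15 to 0.42, adjusted p = 0.879), with 5 of 6 exposed males above the sham mean, and at 0.04 without sham male replicate 1. Acnat2 stood at -0.06 in males (SE 0.08, interval -0.23 to 0.11, adjusted p = 0.913). In females, where it was low, Acnat2 had the widest interval, at -0.70 (SE 0.43, interval -1.61 to 0.22, adjusted p = 0.606). That value depended on PCB 52 female replicate 1, animal 14, whose 5.46 CPM was the highest of all females; the other 5 exposed females lay between 1.02 and 1.94 CPM. Without that library the value was -1.34, with an unadjusted p under 0.05 and an adjusted p of 0.343. Without animals 13 to 16 it was -1.30 with an adjusted p of 0.650. The lowest sham female, at 1.36 CPM, lay within the range of the other exposed females.

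Without animals 13 to 16 the log2 fold changes of exposed females were 0.53 for A1bg, -0.04 for Plaat3, 0.08 for Ces2e, 0.32 for Rasl10b and -1.30 for Acnat2. Those of exposed males were 0.09 for Plaat3, 0.07 for Ces2e, 0.65 for Rasl10b, -0.26 for Nox4, 0.24 for Gfra1 and -0.09 for Acnat2. In these smaller sets 1 of the 5 genes tested in females and 2 of the 6 tested in males had an unadjusted p under 0.05 in edgeR. Over all genes the counts were 625 of 10396 in females and 408 of 10302 in males. At the adjusted threshold 0 of the 7 genes passed. In the interaction without animals 13 to 16, 1 of the 7 had an unadjusted p under 0.05 and 0 passed. In each of these comparisons the share with an unadjusted p under 0.05 was larger among the 7 genes than over all genes. That difference rests on 1 or 2 genes and was not tested. The genes behind these counts are not named here.

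The values under the filter were compared by exact two-sided permutation tests of mean CPM over 6 against 6 animals, adjusted over 3 comparisons. In females the mean of Nox4 was 0.0747 CPM after exposure and 0.0199 CPM without it (exact p = 0.455, adjusted 0.682). For Gfra1, also in females, the means were 0.485 CPM after exposure and 0.238 CPM without it (exact p = 0.247, adjusted 0.682). In males the mean of A1bg was 0.206 CPM after exposure and 0.185 CPM without it (exact p = 0.892, adjusted 0.892). These are differences of a few counts and were not detectable at this depth.

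Whether the response differed between the sexes was tested as an interaction in 1 edgeR fit of the 24 libraries. The sham difference that chose the genes is part of this contrast, so their values here are not independent of that choice. The interaction called 0% of 10535 genes, with 239 at an unadjusted p under 0.05, and none of the 7 genes was among the latter. Of the genes measured in both sexes, the interaction was -0.08 for Plaat3 (SE 0.18), 0.02 for Ces2e (SE 0.19), -0.18 for Rasl10b (SE 0.34) and -0.64 for Acnat2 (SE 0.40), each with an adjusted p of 1. The Acnat2 value was -1.28 without PCB 52 female replicate 1, again with an adjusted p of 1, and that of Rasl10b ran from -0.36 without PCB 52 male replicate 1 to -0.04 without PCB 52 male replicate 3. For A1bg, Nox4 and Gfra1 it rests on the few counts of the low sex. Nox4 stood at 1.63 (SE 1.02, unadjusted p = 0.122), and at 0.39 without PCB 52 female replicate 4 alone, which held 3 of the 4 counts of exposed females, and 2.80 without sham female replicate 3, which held the 1 count of sham females. Gfra1 stood at 0.81 (SE 0.64, unadjusted p = 0.217), at 0.34 without PCB 52 female replicate 5 and at 1.26 without sham female replicate 6. A1bg stood at 0.04 with an SE of 3.83 and a 95% interval of -7.92 to 8.00.

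Whether the genes high in a sex varied together from animal to animal was tested in 9 relations, of which 0 passed adjustment. Plaat3 and Ces2e in the 12 females, after subtracting group means, had the largest coefficient, a Pearson r of 0.696 (permutation p = 0.0241, adjusted 0.217) and a Spearman rho of 0.566 (permutation p = 0.061, adjusted 0.245). The r was 0.698 without the 2 females farthest from the median of Plaat3. A1bg and Rasl10b in females had an r of 0.462 (permutation p = 0.144, adjusted 0.432) and a rho of 0.608 (permutation p = 0.0447, adjusted 0.245), and r was 0.134 without the 2 farthest females. Nox4 and Gfra1 in the 12 males had an r of 0.154 (permutation p = 0.663, adjusted 0.746) and a rho of 0.0559 (permutation p = 0.87).

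The genes most like each of the 7 in their animal-to-animal variation were ranked by Pearson r of log2 CPM over 24 libraries, after group means were subtracted, among 10483 genes. These coefficients are descriptions, since all genes share the same libraries and depths. For A1bg they were Kiaa1191 (r = 0.747), Acsl1 (0.743), which encodes a fatty acid activating enzyme, and Gcnt2 (0.726). In the 12 males these coefficients, 0.656 to 0.742, rest on 0 to 6 counts of A1bg per library. Acsl1 and A1bg had an r of 0.916 in the 12 females, where A1bg was high, and Acsl1 itself differed between PCB 52 females and males by a log2 fold change of 0.39. For Plaat3 they were Gstk1 (0.846), a mitochondrial and peroxisomal glutathione transferase gene, Ptp4a3 (0.810) and Ndufb9 (0.800). For Rasl10b they were Ces1d (0.844), Igfbp4 (0.841) and Sts (0.809), and for Ces2e they were Rhpn2 (0.731), Mettl14 (0.730) and Dennd1c (0.708). Within males and within females, the r with Ces2e was 0.753 and 0.545 for Rhpn2, 0.885 and 0.307 for Mettl14, and 0.817 and 0.0758 for Dennd1c. Dennd1c had a Spearman rho of 0.404 with Ces2e over the 24 libraries, at rank 639 of the genes compared.

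Acnat2 varied most like Hsd3b5 (r = 0.749), Snx1 (0.733) and Dhrs7l1 (0.726). Hsd3b5, a hydroxysteroid dehydrogenase gene, averaged 1523 ± 147 CPM in PCB 52 males and 0.105 ± 0.143 CPM in PCB 52 females (SD, n = 6 each). Dhrs7l1, a short-chain dehydrogenase gene, averaged 419 ± 81.7 CPM in PCB 52 males and 0.696 ± 1.40 CPM in PCB 52 females. Acnat2 and Hsd3b5 had an r of 0.756 in females, where both were low, and of 0.518 in males. For Nox4 the nearest were Tgfa (0.688), Mta2 (0.686) and Zbtb18 (0.682), and for Gfra1 they were Adam1a (0.741), Pck2 (0.672) and Ago1 (0.670). In the female libraries these last coefficients rest on counts of 0 to 9 for Nox4 and Gfra1. In males Adam1a and Gfra1 had an r of 0.499, and Pck2 and Gfra1 0.191.

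Genes of the same families and pathways, from 8 lists chosen with earlier results of these data known, were read in the PCB 52 animals, females against males, with the 7 genes themselves left out of the counts. The median log2 fold change of all genes tested was -0.004. Among the 9 carboxylesterases and relatives tested, 3 were higher in females and 4 in males, with a list median of -0.01. Ces2a (log2 fold change 1.35, SE 0.18, adjusted p = 1.83e-06), Ces2c (0.95, SE 0.16, adjusted p = 6.03e-05) and the arylacetamide deacetylase gene Aadac (0.66, SE 0.11, adjusted p = 2.63e-05) were higher in females. Ces1d (-2.06, SE 0.33, adjusted p = 2.61e-05), Ces1c (-0.75, SE 0.10, adjusted p = 9.43e-07) and Ces2h (-0.42, SE 0.09, adjusted p = 6.51e-04) were higher in males, as was Ces2g, named after its value was seen to complete the count (-0.54). The family thus held members of both directions, and Ces2e at 2.80 had the largest sex difference of those tested.

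Of the 4 PLAAT and N-acylethanolamine genes tested beside Plaat3, with a list median of 0.25, 1 was higher in each sex. Napepld, whose enzyme releases N-acylethanolamines from phospholipids, was higher in males (log2 fold change -1.73, SE 0.33, adjusted p = 1.81e-04). The phosphodiesterase gene Gde1 was higher in females (0.41, SE 0.13, adjusted p = 0.0195), a call that was lost without animals 13 to 16 (0.24, adjusted p = 0.137). Of the 3 Ras-like genes tested beside Rasl10b, with a list median of 0.69, 2 were higher in females. Rasd2 averaged 24.5 ± 9.13 CPM in PCB 52 females and 0.556 ± 0.442 CPM in PCB 52 males (5.35, SE 0.46, adjusted p = 6.35e-09). Rasd1, a glucocorticoid-induced Ras-like gene, stood at 0.69 (SE 0.19, adjusted p = 0.00946), while Rasl10a stood at -0.29 (adjusted p = 0.518).

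Of the 10 NADPH oxidase genes tested beside Nox4, with a list median of 0.28, only Rac2 passed, higher in females (log2 fold change 0.39, SE 0.14, adjusted p = 0.0486). Rac2 is a GTPase of blood cells, and its call was lost in 8 of 10 other settings and in 15 of 24 fits with 1 library left out. The macrophage and neutrophil oxidase gene Cybb stood at 0.30 (adjusted p = 0.147) and passed in 1 of 24 fits with 1 library left out (adjusted p = 0.0311, without PCB 52 female replicate 4). None of the 3 GDNF family genes tested beside Gfra1 passed: Gfra3, the receptor for artemin, stood at 0.67 (adjusted p = 0.153), with a list median of 0.47, and passed in 1 of 24 fits with 1 library left out (adjusted p = 0.0369, without PCB 52 male replicate 3). Ret, whose product carries the signal of GFRA1, averaged 0.406 CPM in PCB 52 males and 0.0796 CPM in PCB 52 females and fell under the filter. In sham animals Ret went the other way, at 0.125 CPM in males and 0.196 CPM in females.

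Of the 16 acyl-CoA conjugation and hydrolysis genes tested beside Acnat2, with a list median of -0.04, 5 were higher in females and 3 in males. The acyl-CoA thioesterase genes Acot5 (log2 fold change 2.83, SE 0.19, adjusted p = 1.68e-12), Acot4 (1.27, SE 0.24), Acot2 (1.17, SE 0.16) and Acot3 (0.94, SE 0.20) were higher in females. Baat (-0.87, SE 0.09, adjusted p = 1.63e-08) and Acot12 (-0.83, SE 0.13, adjusted p = 2.21e-05) were higher in males. Acot7, higher in females (0.43), and Glyatl2, higher in males (-0.32), complete the counts and were named after their values were seen. Baat thus shared the direction of Acnat2 at a far smaller size, 640 ± 78.5 CPM in PCB 52 females and 1142 ± 140 CPM in PCB 52 males.

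Of the 18 hepatocyte plasma protein genes tested beside A1bg, with a list median of -0.16, 2 were higher in females and 5 in males. Serpina6, which encodes the corticosteroid carrier (log2 fold change 1.02, SE 0.16, adjusted p = 2.70e-05), and Itih4 (0.66, SE 0.09, adjusted p = 2.99e-06) were higher in females. Orm1 (-0.77, SE 0.12), the antitrypsin gene Serpina1 (-0.65, SE 0.08), the vitamin D carrier gene Gc (-0.46, SE 0.07) and the retinol carrier gene Rbp4 (-0.35, SE 0.08) were higher in males, as was Mug1 (-0.34), named after its value was seen. No other plasma protein gene tested differed by more than a log2 fold change of 1.02, against 13.58 for A1bg.

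**Figure D4:**
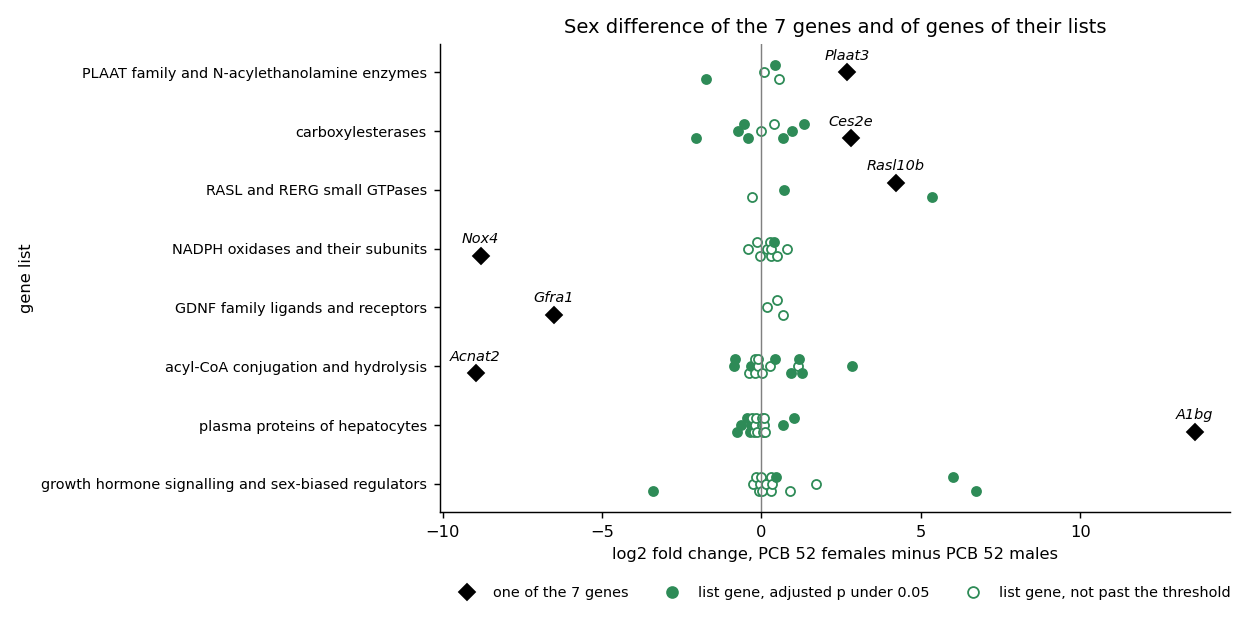
Log2 fold change of PCB 52 females against PCB 52 males for the 7 genes (diamonds) and for the genes of their lists (circles, filled where the adjusted p was under 0.05). A1bg, Nox4, Gfra1 and Acnat2 lie far outside the genes of their own lists, while Rasd2 at 5.35 lies beyond Rasl10b at 4.21.

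Of the 16 growth hormone signalling genes and sex-biased regulators tested, with a list median of 0.22, 3 were higher in PCB 52 females. The prolactin receptor gene Prlr averaged 447 ± 172 CPM in PCB 52 females and 4.06 ± 2.88 CPM in PCB 52 males (log2 fold change 6.74, SE 0.43, adjusted p = 8.95e-11). The repressor gene Cux2 averaged 199 ± 46.9 CPM and 2.96 ± 2.03 CPM (6.02, SE 0.44, adjusted p = 7.91e-10). The growth hormone receptor gene Ghr was higher in females by 0.47 (SE 0.10, adjusted p = 0.00102). Onecut1, which encodes HNF6, stood at 1.72 with an SE of 0.67 and an adjusted p of 0.0815, and it passed in 5 of 10 other settings, with a lowest adjusted p of 0.0344. Bcl6, named because of the background above, did not pass, at 0.14 (SE 0.52, adjusted p = 0.893, edgeR). It averaged 36.1 ± 5.70 CPM in PCB 52 females and 31.7 ± 24.5 CPM in PCB 52 males. In none of the 8 lists did a gene pass in the exposure comparisons or the interaction (0 called with edgeR in each).

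Markers of other liver cells were read beside these differences. In PCB 52 animals 7 of 10 Kupffer cell markers were higher in females and 0 in males, with summed levels of 655 to 868 CPM in females and 565 to 670 CPM in males. Of the 12 stellate cell and fibroblast markers tested, 0 passed, with summed levels of 374 to 561 CPM in PCB 52 females and 425 to 512 CPM in PCB 52 males. Of the 4 cholangiocyte markers tested 1 was higher in each sex, and of the 8 hepatocyte markers 2 were higher in males. The nerve and Schwann cell markers were near 0, at 5.72 to 9.06 CPM summed over 8 genes in PCB 52 females, 3 of them at 0, and at 5.10 to 8.44 CPM in PCB 52 males, 2 of them at 0. The part of these cells in the differences of the 7 genes was not tested.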

How the data were processed

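The authors deposited raw gene counts, without normalization, in 1 table for each sex, per the labels and the file headers. Per the submitters' processing notes, FastQC served for read quality and HISAT2 for alignment to build rn6. Strand setting, counting tool and annotation are not given in the sources used here, so reads of overlapping or antisense genes cannot be told apart. The extract protocol names poly(A) capture or rRNA removal. Of 15319 gene IDs, 15230 matched a symbol in a RefSeq table of GRCr8, and 0 value columns were left unused. Library totals were 6994832 to 9185511 counts. Replicate libraries differed beyond sampling noise (lowest chi-square per degree of freedom 7.01). The labels do not say that the 24 animals were treated in separate batches, and replicate numbers follow accession order and pair nothing.

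Tests used edgeR 4.0.16 in R 4.3.3 with TMM normalization, filterByExpr (minimum count 10, minimum total 15), the robust quasi-likelihood test and Benjamini-Hochberg adjustment over all genes tested, at a threshold of 0.05. Exposure was fitted within each sex, and the sex contrast of PCB 52 animals and the interaction in 1 fit of 24 libraries with 4 group means. The SE is the absolute log2 fold change divided by the square root of the quasi-likelihood F. DESeq2 1.42.0, limma-voom (limma 3.58.1), other normalization and filters, a threshold of 0.10, left-out libraries and a block of consecutively numbered animals were alternatives. Scripts were tested on simulated data. Counting intervals are exact, at 95%, and cover counting error only. CPM are counts per 1000000 library counts, and log2 CPM used a prior count of 2.

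The 7 genes, the gene lists and the tests were chosen with earlier results of these data known. Named genes were all 7, at most 6 per list with the smallest p in the PCB 52 sex contrast, and the 3 genes nearest each of the 7 by Pearson r, leaving out provisional symbols. The result of 1 list gene is not reported here.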

Additional observations from a re-analysis of the deposited data

Results flagged for a closer look

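In the 28 combinations of gene and group, 6 held a library that lay apart from the other 5 of its group by Dixon's criterion. Chance meets it in about 1 of 20 groups of normally distributed values, a rate that does not hold for counts near 0. Of these 6 libraries, 3 rest on a handful of counts. A1bg stood at 0.858 CPM in sham male replicate 6 from 6 counts, against 0.130 CPM in the next male of that group. Nox4 stood at 0.119 CPM in sham female replicate 3 from 1 count, with the other 5 libraries at 0, a case that meets the criterion by construction. Nox4 stood at 0.327 CPM in PCB 52 female replicate 4 from 3 counts, against 0.121 CPM in the next. Acnat2 in PCB 52 female replicate 1 stood at 5.46 CPM from 45 counts, against 1.94 CPM in the next exposed female. Ces2e in sham female replicate 1 stood at 526 CPM, against 489 CPM in the next. Plaat3 in PCB 52 male replicate 2 stood at 15.1 CPM, against 20.8 CPM in the next exposed male.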

How the results depend on the processing

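In the PCB 52 sex contrast, all 7 genes kept direction and call in 10 of 10 other settings and 24 of 24 fits with 1 library left out. In the exposure comparisons and the interaction, 0 of the 7 genes were called in any setting tried. The number of genes called for exposure in females was 0 with edgeR, 27 with DESeq2 and 1 when all 24 libraries were fitted together, and 0 to 8 with 1 library left out, the 8 without PCB 52 female replicate 4. In males it was 0 with edgeR and 1 with DESeq2. Values near 0 changed sign, and the cause was not tested. The A1bg interaction of 0.04 became -0.36 with limma-voom and -0.30 without animals 13 to 16, and ran from -1.47 to 0.72 with 1 library left out, the lowest without sham male replicate 6, which held 6 of the 8 sham male counts. The Plaat3 exposure value in males became 0.033 with limma-voom, 0.089 without animals 13 to 16 and 0.0031 in the fit of 24 libraries, and ran from -0.065 to 0.080 with 1 library left out. With 1 library left out, the Plaat3 exposure value in females ran from -0.17 to 0.014 and the Plaat3 interaction from -0.17 to 0.0097, the Ces2e exposure value in males from -0.032 to 0.18 and the Ces2e interaction from -0.086 to 0.12. Of the list genes, Gde1 lost its call in 2 of 10 settings and 3 of 24 fits with 1 library left out, and Rac2 in 8 and 15. Calls were gained by Onecut1 in 5 settings, by Socs2 in 1 (adjusted p = 0.0165), and by Gfra3, Cybb and Ncf1 in 1 left-out fit each (adjusted p = 0.0369, 0.0311 and 0.0375). In addition, the sex contrast called 1659 genes without animals 13 to 16 against 2093 with them. No paired analysis was possible because the labels give no shared replicate numbers; a block of consecutively numbered animals, a pattern in the numbering only, changed no call of the 7 genes. A1bg in males and Nox4 and Gfra1 in females held only a few counts per library, which limits what could be detected there.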
